A study of Rattus norvegicus with 12 samples.

Results

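The lysosomal genes described here were the hydrolases with their activator prosaposin, the membrane and cholesterol-transfer proteins, and the subunits of the vacuolar proton pump. They were taken by gene symbol from the 2 deposited expression tables of the study: 34 named genes and every symbol that begins with Atp6v0 or Atp6v1. This gave 55 of 18616 genes in the first table, made up of 21 hydrolases and activators, 11 membrane and cholesterol-transfer proteins and 23 pump genes. In the second table it gave 54 of 19355 genes, with 22 pump genes, because Atp6v1e2 was not analysed there.

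Lysosomes take apart the proteins, glycosaminoglycans, glycolipids and glycogen that reach them by endocytosis, phagocytosis and autophagy, and each hydrolase cuts a particular bond in these substrates. The vacuolar proton pump acidifies the lumen: its cytosolic V1 sector splits ATP, and its membrane V0 sector carries the protons. Several of its subunits exist as isoforms encoded by separate genes, and some of these are favoured by specialised cells such as osteoclasts and kidney epithelial cells. Many lysosomal genes carry a short palindromic motif near their start that the transcription factors Tfeb, Tfe3, Mitf and Tfec can bind, which in other systems links lysosome production to nutrient state through the Rag GTPases and mTORC1.

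The 12 libraries came from wild-type rat mesenchymal stem cells of bone marrow (BMSCs) in chondrogenic induction medium, and they form 4 groups of 3 replicates sequenced for RNA. BMSC-C was the control, and in BMSC-CT a first week with CTGF, connective tissue growth factor, was followed by TGF-beta1. The cell type label of BF-C and BF-D names fibrotic BMSCs, and the series design calls the corresponding cells induced fibrotic chondrocytes; BF-C was their control and BF-D received docetaxel, a drug that stabilises microtubules. The labels give neither the docetaxel dose and time nor the way the BF cells were made, and animal age is not given. They do not say whether the replicates were separate cultures, so each p measures only the spread between these libraries, which may be technical.

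The labelled cell type was checked against markers. Summed reads of 10 mesenchymal and fibroblast markers took 0.589 to 0.620% of the BMSC-C libraries, and those of the macrophage markers 0.864 to 1.02%, with Adgre1, a macrophage receptor, at 46251, 41334 and 51694 normalized counts. In BF-C the mesenchymal and fibroblast markers took 6.28 to 6.50% and the macrophage markers 0.00345 to 0.0038%. The libraries labelled BMSC thus held more reads of macrophage than of mesenchymal markers in the control group.

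Depth lay between 15580310 and 19870047 reads per library, and values are normalized counts, the reads divided by 1 size factor per library. BMSC-CT replicate 3 and BF-D replicate 2 stood apart from the other replicates of their groups. BMSC-CT replicate 3 had reads in 14621 genes, the fewest of all libraries, where the others had 16100 to 17614. In it 1 read was worth 1.61 normalized counts, against 0.813 to 1.068 in the others. In BMSC-CT replicate 3 the log2 difference from the mean of the other replicates fell with gene length, with a Spearman rho of -0.40 across 16818 genes and -0.64 across the 55 lysosomal genes. In BF-D replicate 2 these values were -0.36 across 17076 genes and -0.55 across 53 lysosomal genes. In BMSC-CT replicate 3, 23 of the 24 lysosomal genes shorter than 2000 bases were higher than in its group mates, and of the 31 longer ones 15 were; Npc1, among the longest, was lower. Counts of called genes in the BMSC table are therefore given with and without that library.

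**Figure D1:**
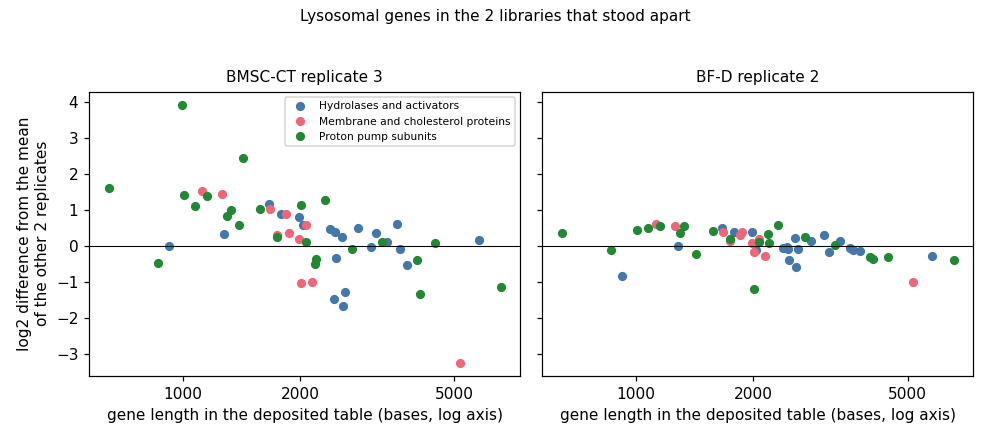
Difference of each lysosomal gene in BMSC-CT replicate 3 (left) and BF-D replicate 2 (right) from the mean of the other 2 replicates of its group, in log2 units, against gene length in bases on a log axis. Points are genes coloured by class; short genes lie mostly above 0 and the longest genes mostly below it in both libraries.

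The first comparison set BMSC-CT against BMSC-C and asks what CTGF and TGF-beta1 did to the lysosomal transcripts of these cells. Of the 55 genes, 23 rose and 0 fell (limma, Benjamini-Hochberg adjusted p under 0.05 over 16818 genes), where 18.6% of all genes were called, 7.70% as higher and 10.9% as lower. The median log2 fold change was 0.99 for the lysosomal genes and -0.15 for all genes. Hydrolases had 13 of 21 genes higher with a median log2 fold change of 1.01, membrane and cholesterol-transfer proteins 5 of 11 with 1.26, and pump genes 5 of 23 with 0.74. The summed reads of the 55 genes took 1.85, 2.03 and 2.28% of the 3 BMSC-C libraries and 3.31, 3.56 and 3.35% of the 3 BMSC-CT libraries, so the groups did not overlap. In bulk RNA a change in the share of cells of a type cannot be told apart from a change in RNA per cell.

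All 3 BMSC-CT libraries were above all 3 BMSC-C libraries in 39 of the 55 genes, and below them in 2, Atp6v0a1 and Atp6v0a4, while groups did not overlap in 52.2% of all genes, 23.3% with BMSC-CT higher. Of all genes 28.9% had every BMSC-CT library lower. Unadjusted p was under 0.05 for 34 lysosomal genes, all higher, and for 42 without BMSC-CT replicate 3. The share of all genes at that unadjusted threshold was not counted, so these counts have no background to be read against. By edgeR 24 were called higher (8.05% of all genes), by DESeq2 35 (16.5%), with quality weights per library 42 (24.7%) and 1 lower (30.1%), and 35 in the authors' deposited table (14.5%). Without BMSC-CT replicate 3 the count of genes called higher was 41, with 19.5% of all genes called higher, and with total-read scaling it was 15, with 4.68% of all genes called higher. It was 3, 3, 9 and 5 without BMSC-C replicate 1, BMSC-C replicate 2, BMSC-C replicate 3 and BMSC-CT replicate 2, where 1.69%, 1.48%, 2.75% and 2.39% of all genes were called higher.

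**Figure D2:**
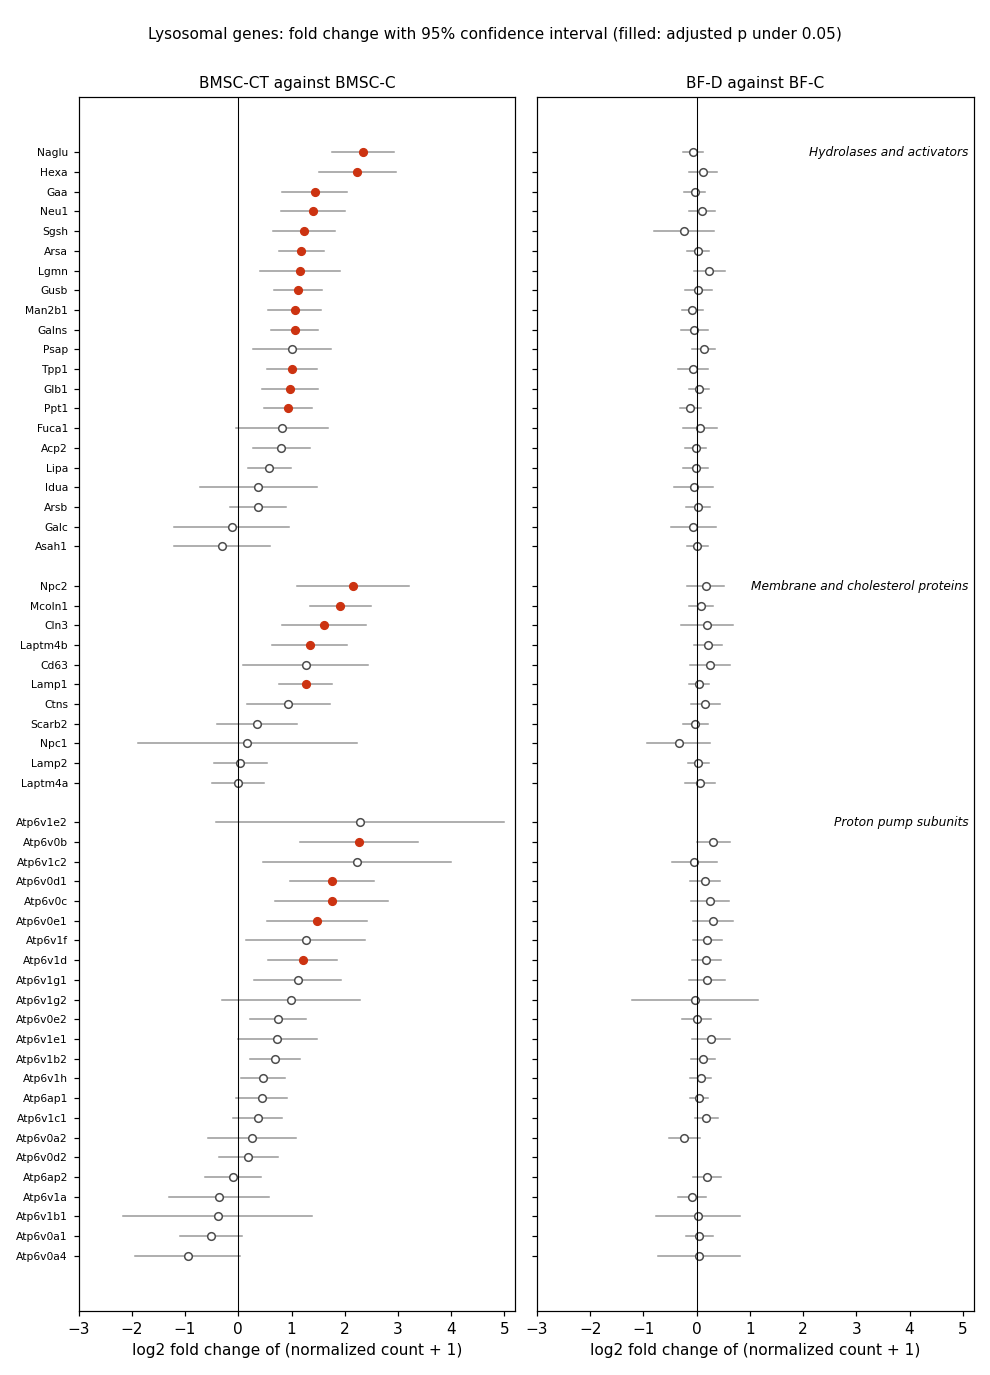
Log2 fold change of log2(normalized count + 1) with its 95% confidence interval for each lysosomal gene, in BMSC-CT against BMSC-C (left) and BF-D against BF-C (right), sorted within the 3 classes. Filled points have an adjusted p under 0.05: 23 genes on the left, all above 0, and none on the right.

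Promoter sequences were compared because many of the genes moved the same way, and the window runs from 250 bases before to 50 bases after the start given by RefSeq on GRCr8. A promoter was found by symbol for 43 of the 55 genes, and it was searched on both strands for CACGTG, the core of the motif bound by Tfeb and its relatives and by other E-box factors. CACGTG was present in 11 of the 43, among them 8 of the 19 genes called higher and 3 of the 24 not called. It was present in 6.42% of 33469 promoters of that length and 7.02% of those of protein-coding genes. These calls use all libraries, and of those 3 genes Idua and Cd63 were called higher without BMSC-CT replicate 3. The 24 include Atp6v0a4, Atp6v1b1, Atp6v1e2 and Atp6v1g2, which had few reads. Whether the motif goes with the calls was not tested. The longer TCACGTGA, which contains CACGTG, was present in 6 of the 43 and in 0.777% of all promoters. These 6 promoters are shown because they hold the longer word; capitals mark each CACGTG.
Lamp1: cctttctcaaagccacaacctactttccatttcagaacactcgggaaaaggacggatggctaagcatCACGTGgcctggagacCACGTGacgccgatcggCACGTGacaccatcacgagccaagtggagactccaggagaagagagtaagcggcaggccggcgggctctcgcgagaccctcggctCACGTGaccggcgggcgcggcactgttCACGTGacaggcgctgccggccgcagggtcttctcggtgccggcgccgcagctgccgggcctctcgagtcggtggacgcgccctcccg
Mcoln1: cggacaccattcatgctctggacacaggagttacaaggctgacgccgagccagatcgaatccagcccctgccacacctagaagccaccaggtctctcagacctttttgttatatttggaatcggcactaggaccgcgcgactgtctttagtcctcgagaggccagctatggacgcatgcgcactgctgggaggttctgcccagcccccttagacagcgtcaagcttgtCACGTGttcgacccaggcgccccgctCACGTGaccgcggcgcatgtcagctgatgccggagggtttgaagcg
Cln3: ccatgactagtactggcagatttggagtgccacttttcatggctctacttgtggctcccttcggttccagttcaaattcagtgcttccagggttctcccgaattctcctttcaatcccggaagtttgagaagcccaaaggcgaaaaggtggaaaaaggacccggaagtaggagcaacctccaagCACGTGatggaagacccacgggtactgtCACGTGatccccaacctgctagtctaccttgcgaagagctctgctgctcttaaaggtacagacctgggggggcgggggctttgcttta
Atp6v0d1: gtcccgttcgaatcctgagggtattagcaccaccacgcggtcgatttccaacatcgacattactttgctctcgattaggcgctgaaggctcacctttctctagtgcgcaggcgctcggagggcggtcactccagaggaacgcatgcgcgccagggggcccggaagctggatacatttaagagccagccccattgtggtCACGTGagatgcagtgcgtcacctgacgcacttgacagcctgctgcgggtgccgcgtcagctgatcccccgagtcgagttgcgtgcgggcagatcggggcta
Atp6v0e1: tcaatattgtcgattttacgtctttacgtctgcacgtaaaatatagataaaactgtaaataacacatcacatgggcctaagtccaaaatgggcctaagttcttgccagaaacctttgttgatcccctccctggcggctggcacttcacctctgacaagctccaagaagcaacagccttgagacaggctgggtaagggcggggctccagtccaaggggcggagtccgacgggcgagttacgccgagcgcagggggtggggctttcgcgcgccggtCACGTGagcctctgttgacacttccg
Galc: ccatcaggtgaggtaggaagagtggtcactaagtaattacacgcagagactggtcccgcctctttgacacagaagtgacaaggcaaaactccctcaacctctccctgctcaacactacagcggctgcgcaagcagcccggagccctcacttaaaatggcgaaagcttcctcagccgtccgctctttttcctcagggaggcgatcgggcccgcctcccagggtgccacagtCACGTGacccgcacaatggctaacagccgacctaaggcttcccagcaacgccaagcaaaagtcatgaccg

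The windows lie at chr16:83075014-83075313 on the minus strand for Lamp1, chr12:6358008-6358307 on the plus strand for Mcoln1 and chr1:190597880-190598179 on the minus strand for Cln3. Those of the pump genes lie at chr19:50357199-50357498 on the minus strand for Atp6v0d1 and chr10:17007107-17007406 on the minus strand for Atp6v0e1, and that of Galc at chr6:123245510-123245809 on the minus strand. The Lamp1 promoter held 5 copies, with first letters at positions -183, -167, -150, -65 and -38 from the start, the most among the 43 promoters. Mcoln1 held 2, at -22 and 5, and Cln3 held 2, at -66 and -38. The copy of Atp6v0d1 began at -52, that of Atp6v0e1 at 25 and that of Galc at -20. Of the 6 genes shown, Galc was the one not called. Shorter matches stood in Gaa, Sgsh and Glb1, called higher, and in Idua and Cd63, not called with all libraries. A match describes these letters and is not evidence of binding.

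Naglu, the alpha-N-acetylglucosaminidase that removes sugars from heparan sulfate, had the smallest adjusted p of the hydrolases. It measured 1102, 1435 and 1689.8 normalized counts in BMSC-C and 5895, 6989 and 8416 in BMSC-CT. The groups did not overlap, and the log2 fold change was 2.34 (95% confidence interval 1.75 to 2.92, adjusted p = 0.00227). Hexa, the alpha subunit of the beta-hexosaminidase that degrades GM2 ganglioside, measured 2739, 2939.8 and 3419 in BMSC-C and 10564, 12615 and 21493 in BMSC-CT. Its lowest treated library was above its highest control library, and the log2 fold change was 2.23 (1.51 to 2.96, adjusted p = 0.00567). Naglu and Hexa, with Mcoln1 among the membrane proteins, were the 3 of 23 genes that kept their call whichever library was left out.

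Arsa, the sulfatase of sulfatide, measured 703, 773 and 821 in BMSC-C and 1734, 1801 and 1688 in BMSC-CT. Its libraries differed little within groups, and its log2 fold change was 1.19 (adjusted p = 0.00767). Gusb, the beta-glucuronidase of glycosaminoglycan breakdown, measured 519, 635 and 656 against 1310.2, 1310.7 and 1292. Its 3 treated libraries were nearly equal, BMSC-CT replicate 3 included, and its log2 fold change was 1.12 (adjusted p = 0.0117). Galns, which removes sulfate from keratan sulfate, measured 1045, 986 and 1226 against 2081, 2262 and 2420.4. Its log2 fold change was 1.06 (adjusted p = 0.0138), and it is the longest of the hydrolases at 5785 bases.

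Gaa, the glucosidase that degrades glycogen, measured 5735, 6082 and 7354 in BMSC-C and 14410.1, 15370.4 and 22931 in BMSC-CT. No treated library was near the control range, and the log2 fold change was 1.44 (adjusted p = 0.0142). Neu1, the lysosomal sialidase, measured 1352, 1621 and 2048 against 3628, 4246.5 and 5453, and its log2 fold change was 1.41 (adjusted p = 0.0142). Tpp1, a tripeptidyl peptidase, measured 4108, 3836 and 4252 against 8357, 9265 and 6959.9. BMSC-CT replicate 3 was here the lowest of the treated libraries, and the log2 fold change was 1.00 (adjusted p = 0.0188).

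The other 5 hydrolases called higher were Sgsh, the sulfamidase of heparan sulfate, Man2b1, an alpha-mannosidase, Ppt1, which removes palmitate from proteins, Glb1, the beta-galactosidase, and Lgmn, the asparaginyl endopeptidase legumain. Their log2 fold changes ran from 0.93 for Ppt1 to 1.24 for Sgsh. Glb1 measured 2183, 1966 and 2231 in BMSC-C and 3472, 3917 and 5271 in BMSC-CT, a log2 fold change of 0.97 (adjusted p = 0.0292). Its enzyme activity is widely used as a marker of senescent cells. Under total-read scaling its log2 fold change was 0.55 with an adjusted p of 0.0775.

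Of the 8 hydrolases and activators that were not called, prosaposin was the most abundant. Psap, the precursor of the saposin activators, measured 73459, 79480.5 and 107464 in BMSC-C and 147435, 180788 and 193234 in BMSC-CT. The groups did not overlap, and the log2 fold change was 1.01 with an interval of 0.28 to 1.74 and an adjusted p of 0.0623. The acid phosphatase Acp2 had a log2 fold change of 0.81 and an adjusted p of 0.0505, just outside the threshold, and Lgmn had 1.16 and 0.0469, just inside it. The acid lipase Lipa had 0.58, the fucosidase Fuca1 0.81, the sulfatase Arsb 0.37 and the iduronidase Idua 0.37, with adjusted p from 0.0586 to 0.556.

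Only the acid ceramidase Asah1, with -0.31, and the galactosylceramidase Galc, with -0.12, had log2 fold changes below 0 among the hydrolases. Idua measured 1612, 1609.9 and 1557 in BMSC-C but 3010.1, 3024 and 961 in BMSC-CT, so that BMSC-CT replicate 3 alone lay below the controls. Without that library its log2 fold change was 0.92 (adjusted p = 0.000684), Galc had 0.36 and Asah1 0.11. In the same setting 18 of 21 hydrolases and activators were called higher and 0 lower, where 19.5% of all genes were called higher and 23.5% lower.

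**Figure D3:**
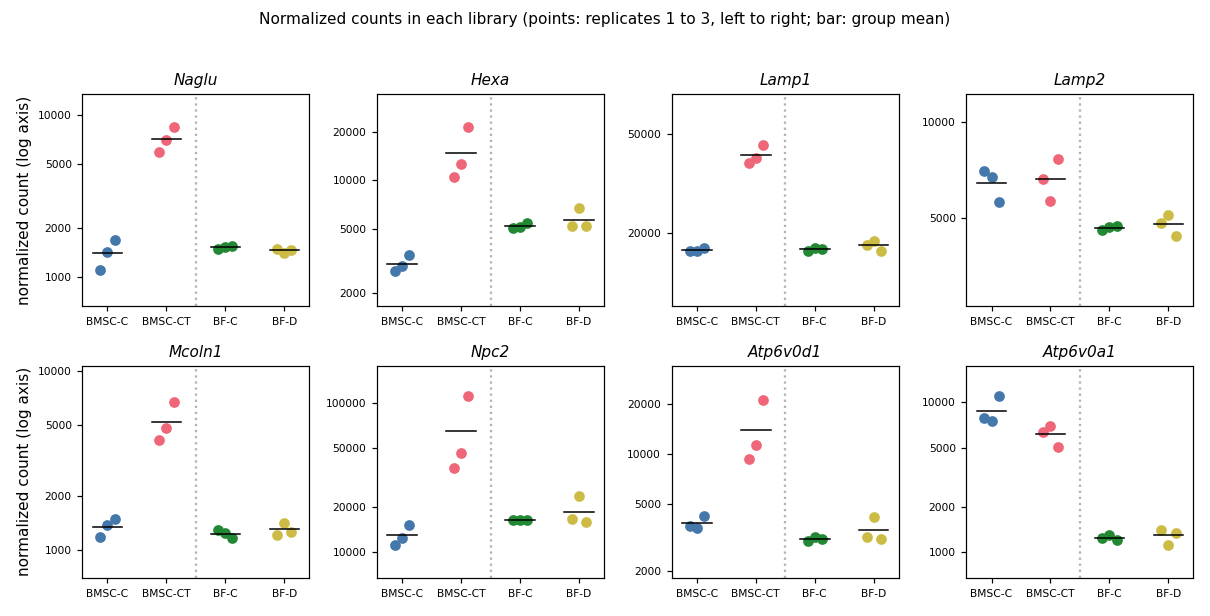
Normalized counts of 8 lysosomal genes in each of the 12 libraries, on log axes, with points for replicates 1 to 3 and a bar for the group mean. The dotted line separates the 2 tables, which were normalized separately; Naglu, Hexa, Lamp1, Mcoln1, Npc2 and Atp6v0d1 do not overlap between BMSC-C and BMSC-CT, Lamp2 does, and Atp6v0a1 is lower in BMSC-CT.

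Among the membrane and cholesterol-transfer proteins, Mcoln1, the cation channel TRPML1 that releases calcium from lysosomes, measured 1189, 1373 and 1485 in BMSC-C and 4123, 4795 and 6644 in BMSC-CT. The groups were far apart, and the log2 fold change was 1.92 (1.35 to 2.49, adjusted p = 0.00409). Lamp1, a heavily glycosylated protein that lines the lysosomal membrane, measured 16885, 16818 and 17379 against 38058, 39809 and 45017. Control libraries differed by little beside the gap to the treated ones, and the log2 fold change was 1.26 (0.77 to 1.76, adjusted p = 0.0108). Both promoters are among those printed above, Lamp1 with its 5 copies of CACGTG.

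Lamp2, the companion of Lamp1 and the receptor of chaperone-mediated autophagy in 1 of its splice forms, measured 7009, 6705 and 5611 in BMSC-C and 6603, 5663 and 7633 in BMSC-CT. The groups overlapped, and the log2 fold change was 0.04 with an interval of -0.46 to 0.54 (adjusted p = 0.901). Under total-read scaling it was -0.38. Laptm4a and Laptm4b, related membrane proteins of late endosomes and lysosomes, also parted: Laptm4b rose, with 994, 1112 and 1263 in BMSC-C, 2157, 2489 and 4264 in BMSC-CT and a log2 fold change of 1.34 (adjusted p = 0.0266). Laptm4a had a log2 fold change of -0.001 with an interval of -0.49 to 0.49 (adjusted p = 0.997). Neither difference between family members was itself tested.

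Npc2 and Npc1 hand cholesterol to each other in the lysosome, Npc2 in the lumen and Npc1 in the membrane. Npc2 measured 11241, 12522 and 15153 in BMSC-C and 37029, 46275 and 111633 in BMSC-CT. Its log2 fold change was 2.16 (1.11 to 3.21, adjusted p = 0.0212). With the far higher BMSC-CT replicate 3 left out it was 1.69 (adjusted p = 0.000315). Npc1 measured 2450.3, 2126 and 2349 against 5674, 5299.7 and 579.7, so BMSC-CT replicate 3 lay below every control and the others above. Its log2 fold change was 0.17 (-1.89 to 2.23, adjusted p = 0.891) with all libraries and 1.25 (adjusted p = 0.000213) without BMSC-CT replicate 3. At 5161 bases Npc1 is the longest of the membrane proteins and Npc2, at 1256, among the shortest.

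Cln3, a membrane protein mutated in juvenile Batten disease, measured 352, 368 and 445 in BMSC-C and 886, 989.9 and 1907 in BMSC-CT, and its log2 fold change was 1.62 (adjusted p = 0.0216). The tetraspanin Cd63 measured 20622, 29661 and 34320 against 41508, 52130.5 and 134559, and its log2 fold change of 1.26 was not called (adjusted p = 0.11). The groups of Cd63 did not overlap, but the spread among its treated libraries was wide. The cystine exporter Ctns had a log2 fold change of 0.94 (adjusted p = 0.0871) and Scarb2, a lysosomal membrane receptor that also sorts a hydrolase, 0.35 (adjusted p = 0.419). Without BMSC-CT replicate 3, 9 of 11 were called higher and 0 lower, leaving out Lamp2 and Laptm4a. In that setting 19.5% of all genes were called higher and 23.5% lower.

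In the proton pump 4 of 9 V0 genes and 1 of 12 V1 genes were called higher, with median log2 fold changes of 0.74 and 0.86, where 7.70% of all genes were called higher. With BMSC-CT replicate 3 left out it was 6 of 9 V0 and 7 of 11 V1 genes, where 19.5% of all genes were. The difference between sectors was not tested. Atp6v0d1, the d subunit that joins the sectors, measured 3738, 3611 and 4262 in BMSC-C and 9385, 11336 and 21197 in BMSC-CT. All treated libraries were above all controls, and the log2 fold change was 1.76 (0.97 to 2.55, adjusted p = 0.0166). Atp6v0b, a subunit of the rotating proteolipid ring, measured 3047, 4443 and 5468 against 12152, 17489 and 38600.1. It had the largest log2 fold change of the called pump genes, 2.26 (1.15 to 3.37, adjusted p = 0.0218), and 1.80 without BMSC-CT replicate 3.

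Atp6v0c, the main proteolipid of that ring, measured 11063, 12692.5 and 16688 in BMSC-C and 28324, 37095 and 84986 in BMSC-CT, a log2 fold change of 1.75 (adjusted p = 0.0393). It had the highest level per length of the pump genes in every group, from an RPKM of 327 ± 8.61 in BF-C to 2019 ± 573 in BMSC-CT (SD, n = 3), where RPKM are reads scaled by gene length and by the library's total. Atp6v0e1, a small membrane subunit, measured 2991, 3478 and 3971 against 6355, 8124 and 17480.4, a log2 fold change of 1.48 (adjusted p = 0.0449). Both were highest in BMSC-CT replicate 3. Atp6v1d, a subunit of the central shaft and the V1 gene that was called, measured 2246, 2116 and 2119.6 against 4150.2, 4119 and 7316, a log2 fold change of 1.21 (adjusted p = 0.0278).

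The catalytic A subunit Atp6v1a measured 4450.2, 4737 and 4157 in BMSC-C and 5187, 4238 and 1858 in BMSC-CT, so the groups overlapped. Its log2 fold change was -0.37 (-1.30 to 0.57, adjusted p = 0.497) and 0.08 without BMSC-CT replicate 3. The accessory proteins Atp6ap1 and Atp6ap2 had log2 fold changes of 0.44 and -0.10, neither of which was called (adjusted p = 0.155 and 0.746). Once BMSC-CT replicate 3 was left out, 14 of 22 pump genes tested were called higher and 0 lower. Of all genes 19.5% were then called higher and 23.5% lower.

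Several subunits have more than 1 isoform, and these did not share 1 pattern. Of the a subunit, which steers the pump to its membrane, the a1 form Atp6v0a1 measured 7850.1, 7518 and 10969 in BMSC-C and 6309, 7008 and 5073 in BMSC-CT, with every treated library below every control. Its log2 fold change of -0.51 was not called (-1.09 to 0.07, adjusted p = 0.168). The a3 form Tcirg1, which is not among the 55 genes by its symbol and is the form of osteoclasts and of secretory lysosomes, measured 1180.4, 1376 and 1575 against 6432, 8343 and 12831. It rose with a log2 fold change of 2.69 (adjusted p = 0.00265).

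Per length, Tcirg1 made up 16.6 to 19.9% of the summed a-subunit transcripts in BMSC-C and 57.0 to 77.4% in BMSC-CT, while Atp6v0a1 made up 76.1 to 80.7% and 21.4 to 39.1%. The 77.4% was that of BMSC-CT replicate 3, and Tcirg1 made up 57.0 and 61.2% in its group mates. The log2 ratio of Tcirg1 to Atp6v0a1 within a library was -2.15 ± 0.19 in BMSC-C and 1.05 ± 0.70 in BMSC-CT (SD, n = 3). A single scaling factor per library cannot move this ratio, but a trend with gene length can. In BMSC-CT replicate 3 the ratio was 1.85, beside 0.54 and 0.77 in its group mates. The part of gene length in it was not tested. The groups did not overlap, and the exact two-sided permutation test gave p = 0.1, the smallest that 3 against 3 libraries allow. In BF-C and BF-D Atp6v0a1, Atp6v0a2 and Tcirg1 each held a sizeable share, 35.6 ± 0.99, 20.4 ± 1.01 and 43.4 ± 0.61% in BF-C, and the ratio did not separate the groups (0.29 ± 0.05 and 0.20 ± 0.15, exact permutation p = 0.5). Atp6v0a2 had a log2 fold change of 0.26 in BMSC-CT, and the kidney form Atp6v0a4 stayed at or below 14 reads in any BMSC library.

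**Figure D4:**
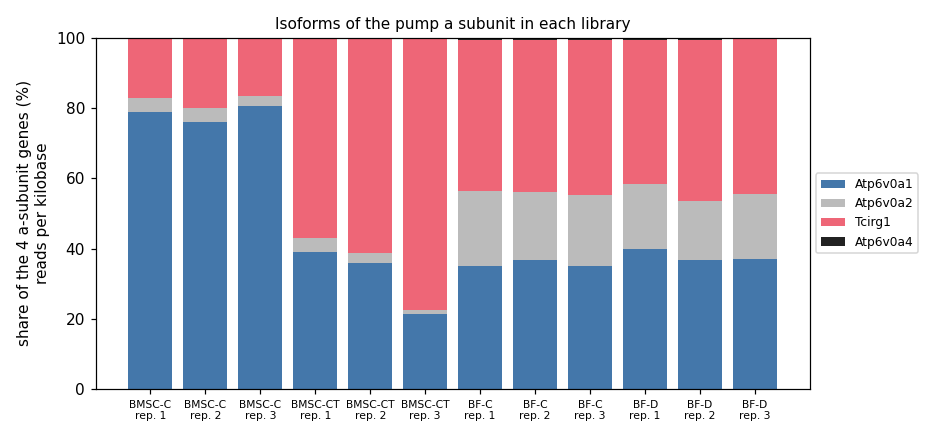
Share of each of the 4 a-subunit genes in their summed reads per kilobase, in percent, for each of the 12 libraries. Tcirg1 holds 16.6 to 19.9% of the bar in BMSC-C and 57.0 to 77.4% in BMSC-CT; Atp6v0a4 is close to 0 throughout.

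Of the d subunit, Atp6v0d2, the form found in osteoclasts, kidney and some macrophages, measured 707, 693 and 654 in BMSC-C and 701, 661 and 1021 in BMSC-CT. The groups overlapped, with a log2 fold change of 0.19 (-0.37 to 0.74, adjusted p = 0.56). It made up 14.8 to 17.9% of the d-subunit transcripts per length in BMSC-C and 5.18 to 7.80% in BMSC-CT, where Atp6v0d1 had risen. In the BF libraries it had between 0 and 2 reads.

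The B, E and G subunits came almost wholly from 1 form each, while the C and e subunits had a second form with a larger share. Atp6v1b2 held at least 99.5% of the B-subunit level per length in every group and had a log2 fold change of 0.69 in BMSC-CT (adjusted p = 0.0558), while Atp6v1b1 had -0.39 and at most 22 reads in any library. Atp6v1c1 had 0.36 (adjusted p = 0.212); Atp6v1c2 measured 15.4, 13.5 and 26.0 against 52.4, 45.4 and 267 and was not called (adjusted p = 0.0781). Atp6v1e1 had 0.74 (adjusted p = 0.133) and Atp6v1e2 was at 0 reads in 2 BMSC-C libraries and at 1 to 22 reads in BMSC-CT. Atp6v1g1 had 1.11 (adjusted p = 0.0662), and Atp6v1g2 had at most 9 reads in any library. Atp6v1c2 held 0.909 to 1.93% of the C-subunit level per length in BMSC-C, 2.64 to 11.7% in BMSC-CT and 5.98 to 6.70% in BF-C. The 11.7% was that of BMSC-CT replicate 3, beside 2.64 and 2.92% in its group mates. Of the e subunit, Atp6v0e2 held 28.2 to 34.0% in BMSC-C, 10.8 to 29.5% in BMSC-CT and 18.6 to 21.7% in BF-C. The 10.8% was that of BMSC-CT replicate 3, while its group mates, at 29.5 and 28.3%, lay within the BMSC-C range. The log2 fold change of Atp6v0e2 in BMSC-CT, 0.74, was not called (adjusted p = 0.0603).

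Other lysosomal genes were read from lists of the same pathway, beside the 7.70% of all genes called higher and 10.9% called lower, or 19.5% and 23.5% without BMSC-CT replicate 3. Of 20 further rows for hydrolases, activators and factors of their sorting, in which 1 gene has 2 identifiers, 6 were higher and 0 lower (median log2 fold change 0.62), and 16 and 1 without that library. Dnase2, the acid nuclease, Nagpa, which uncovers the mannose 6-phosphate sorting signal, and the phospholipase Pla2g15 had log2 fold changes of 2.24, 1.91 and 1.25.

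Of 19 further membrane proteins and transporters tested, 7 were higher and 0 lower with a median of 0.70, led by Tcirg1, the histidine and peptide transporter Slc15a4 with 1.87, Cd68 with 1.81 and the nucleoside transporter Slc29a3 with 1.14. Leaving out BMSC-CT replicate 3 gave 15 higher and 1 lower. Of 11 cathepsins, the lysosomal proteases, 5 were higher and 0 lower: Ctsk, Ctsa, Ctsd, Ctsz and Ctsh, with log2 fold changes from 1.44 for Ctsh to 1.999 for Ctsd, and 8 and 1 with that library left out. Together the cathepsins took 1.06 to 1.33% of reads in BMSC-C and 2.12 to 2.43% in BMSC-CT. Tcirg1 and Cd68 are also abundant in macrophages. In the authors' deposited table of KEGG terms, Lysosome held 69 genes of a term background of 129, 64 up and 5 down, with an adjusted p of 0.000268. Of the 55 genes 27 were among the 69, and the term rests on the same libraries, so it is not separate support. Of all genes 29.0% had a deposited adjusted p under 0.05.

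The transcription factors that bind the CACGTG motif did not move together. Tfeb measured 216, 315 and 347 in BMSC-C and 728, 854 and 1779 in BMSC-CT, and rose with a log2 fold change of 1.85 (adjusted p = 0.0243). Mitf measured 671, 674 and 489.6 against 339, 206 and 116, and fell by 1.59 on the log2 scale (adjusted p = 0.0432). Tfec, a relative expressed mostly in myeloid cells, fell from 107, 107 and 71.9 to 15.4, 12.7 and 27.4, a log2 fold change of -2.36 (adjusted p = 0.0149). Tfe3 measured 747, 749 and 865 against 1348, 1383 and 161, and its log2 fold change was -0.23 (adjusted p = 0.848) with all libraries and 0.80 (adjusted p = 0.00252) without BMSC-CT replicate 3.

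The calls of Tfeb and Mitf were lost without BMSC-C replicate 1, BMSC-C replicate 2, BMSC-C replicate 3 or BMSC-CT replicate 2, with adjusted p up to 0.109 for Tfeb and 0.163 for Mitf. That of Mitf was also lost under total-read scaling (adjusted p = 0.0653). Among the 17 genes of these factors and of the mTORC1 machinery on lysosomes, 7 were higher and 2 lower, and 10 and 3 with BMSC-CT replicate 3 left out. The shares of all genes were 7.70% higher and 10.9% lower, and 19.5% and 23.5% without that library. Rragd, a Rag GTPase, measured 119, 107 and 112 in BMSC-C and 799, 619 and 672 in BMSC-CT, a log2 fold change of 2.62 (adjusted p = 0.00122). Its call held whichever library was left out. Flcn, which acts on the GTPase state of RagC and RagD, had a log2 fold change of 1.27 (adjusted p = 0.0112) and Rragc 0.96 (adjusted p = 0.0172), and Lamtor1, Lamtor3 and Lamtor5 were also higher.

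Markers of other cell types were read beside these values because macrophages and osteoclasts are rich in lysosomes. Of 16 macrophage markers, 15 were analysed in the BMSC table. There 3 were higher (Csf1r, Lyz2 and Fcer1g), 3 lower (Cd163, Adgre1 and Msr1) and the median log2 fold change was -0.84. With BMSC-CT replicate 3 left out 5 of the macrophage markers were higher and 9 lower. Of all genes 7.70% were called higher and 10.9% lower, or 19.5% and 23.5% without that library. The summed reads of the macrophage markers took 0.864 to 1.02% of the BMSC-C libraries and 0.998 to 1.29% of the BMSC-CT libraries, ranges that overlapped. Lyz2 alone went from 55296, 55662 and 69188 to 129818, 160660.0 and 191896. Cd163 had no read in BMSC-CT replicates 1 and 3. Of 6 osteoclast markers analysed, Acp5 rose with a log2 fold change of 1.88 and 0 fell (3 and 1 without BMSC-CT replicate 3), and their share was 0.00429 to 0.00502% in BMSC-C and 0.00832 to 0.0107% in BMSC-CT.

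The melanocyte markers Pmel, Tyrp1 and Mlana all rose, also without BMSC-CT replicate 3, and their summed share was 0.000313 to 0.000393% in BMSC-C and 0.0185 to 0.0208% in BMSC-CT. Pmel forms the fibrils of melanosomes, which are organelles related to lysosomes, and measured 34.1, 39.8 and 45.9 against 2208, 2716 and 2923. Of all genes 7.70% were called higher and 10.9% lower, or 19.5% and 23.5% without BMSC-CT replicate 3. Of 10 mesenchymal and fibroblast markers 3 rose, Col1a1, Col3a1 and Eng, and 3 fell, Pdgfra, Thy1 and Lum, and without that library it was 4 and 4. Their summed share was 0.595, 0.620 and 0.589% in BMSC-C and 1.36, 1.06 and 0.637% in BMSC-CT, so the groups did not overlap. The part of any of these cell types in the lysosomal counts was not tested.

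**Figure D5:**
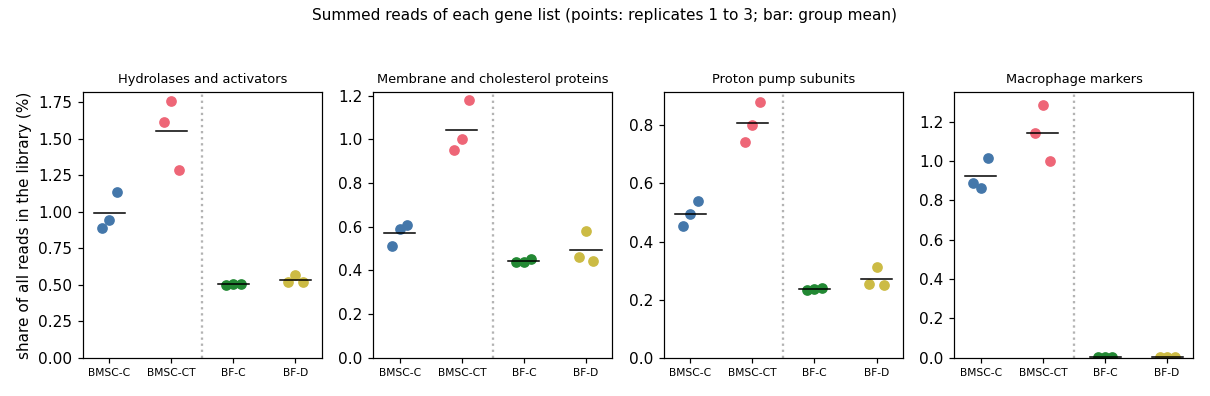
Summed reads of the hydrolases and activators, the membrane and cholesterol-transfer proteins, the pump genes and the macrophage markers as a share of all reads of a library, in percent, with points for replicates 1 to 3 and a bar for the group mean. The 3 lysosomal classes do not overlap between BMSC-C and BMSC-CT, the macrophage markers do, and these are close to 0 in BF-C and BF-D.

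The second comparison set BF-D against BF-C and asks what docetaxel did to the lysosomal transcripts of the fibrotic cells. Of 53 genes tested, 0 were called higher and 0 lower by limma, where 0.0117% of all genes were called (0.422% by DESeq2). Unadjusted p was under 0.05 for 0 of the 53 by limma, and for 1, higher, by edgeR and by DESeq2, which also called 0 of them after adjustment. The share of all genes at that unadjusted threshold was not counted. The median log2 fold change was 0.04, and -0.004 over all genes. Hydrolases and activators had a median of -0.02, membrane proteins 0.07 and pump genes 0.12. The first class took 0.4996 to 0.505% of reads in BF-C and 0.517 to 0.569% in BF-D, and the pump genes 0.234 to 0.241% and 0.249 to 0.313%. The membrane proteins overlapped, at 0.441, 0.4405 and 0.452% in BF-C and 0.462, 0.58 and 0.444% in BF-D.

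The log2 fold changes ran from -0.34 for Npc1 to 0.31 for Atp6v0b and Atp6v0e1. Atp6v0b measured 1832, 1989 and 2011 in BF-C and 2256, 2947 and 2096 in BF-D. The groups did not overlap, with a 95% confidence interval of -0.0005 to 0.62 and an adjusted p of 0.706. Npc1 measured 1603, 1631 and 1441 against 1529, 776 and 1561, so BF-D replicate 2 alone lay below. Over the 49 genes with a control mean of at least 100 the 95% confidence intervals lay between -0.92 and 0.69, and larger changes lie outside these intervals.

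All 3 BF-D libraries were above all 3 BF-C libraries in 8 genes and below in 2, Atp6v0a2 and Ppt1, while groups did not overlap in 16.8% of all genes, 7.78% with BF-D higher and 9.04% with BF-D lower. The 8 were Atp6v0b, Atp6v0c, Atp6v1c1, Atp6v1f, Atp6ap2, Laptm4b, Ctns and Psap, 5 of them pump genes. Without BF-D replicate 2 no gene of the 53 was called either, where 1.54% of all genes were called at an adjusted p under 0.05. Unadjusted p was then under 0.05 for 4 that were higher and 1 that was lower. The share of all genes at that unadjusted threshold was not counted.

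The 23 genes called higher in BMSC-CT had log2 fold changes here from -0.24 for Sgsh to 0.31 for Atp6v0b and Atp6v0e1, and none was called. Hexa measured 5067, 5147 and 5426 in BF-C and 5168, 6737 and 5202 in BF-D, a log2 fold change of 0.12 (-0.15 to 0.39, adjusted p = 0.747). Naglu had -0.06 (-0.25 to 0.12), Lamp1 0.05 (-0.14 to 0.23) and Lamp2 0.03 (-0.17 to 0.23). Glb1 measured 3911, 3737 and 3679 against 3757, 4112 and 3744, a log2 fold change of 0.04 (-0.15 to 0.22, adjusted p = 0.886). Atp6v0d1 had 0.16, Atp6v0a1 0.05 and Tcirg1 -0.04. Whether the effects in the 2 comparisons differ was not tested, because the tables were normalized separately.

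Of the isoforms, Atp6v1c1 had 0.18 and Atp6v1c2 -0.04, Atp6v1g1 0.19 and Atp6v1g2 -0.03, Atp6v1b2 0.12 and Atp6v1b1 0.03, and Atp6v1e1 0.27. Atp6v0d2, at 0 to 2 reads, was below the filter. Tfeb, Tfe3, Mitf and Tfec had log2 fold changes of 0.20, -0.19, 0.12 and -0.16, none called. In every other lysosomal list limma called 0 genes; the authors' deposited table likewise gave 0 of the 54 genes an adjusted p under 0.05, its smallest being 0.855, against 0.362% of all genes. DESeq2 called 1 further lysosomal membrane protein higher, where it called 0.422% of all genes in either direction.

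The smallest adjusted p among those lists belonged to Cd68, which measured 105, 91.8 and 112 in BF-C and 183, 177 and 171 in BF-D (log2 fold change 0.78, adjusted p = 0.413). Its adjusted p was 0.0229 once BF-D replicate 2 was left out, where 1.54% of all genes were called. Of 11 macrophage markers analysed in the BF table, 0 were called by limma and 1 by DESeq2, where 0.0117% and 0.422% of all genes were called. At an unadjusted p under 0.05 there were 4, and the share of all genes at that threshold was not counted. Their summed share was 0.00345 to 0.0038% of reads in BF-C and 0.00471 to 0.00527% in BF-D, ranges that did not overlap, and Lyz2 measured 49.1, 45.9 and 40.3 against 110, 128 and 171. Their part in the value of Cd68 was not tested.

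Levels across the 2 tables are a description, in RPKM or in reads scaled to the library's total. Of the 54 genes in both tables, 38 were lower in all 3 BF-C libraries than in all 3 BMSC-C libraries and 10 were higher in reads scaled to the total, where 30.3% and 27.3% of 17546 genes were (57.6% in either direction). The 10 pump and hydrolase genes that were higher in BF-C include Gaa, at 187 ± 13.0 against 122 ± 12.8 RPKM, Hexa, at 174 ± 7.20 against 115 ± 10.2, and Glb1, at 79.7 ± 2.25 against 51.0 ± 2.49 (SD, n = 3). Of the 11 membrane proteins none was higher in BF-C and 10 were lower.

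Lgmn differed widely between the tables, with 537 ± 80.3 RPKM for BMSC-C and 888 ± 35.5 for BMSC-CT, but 72.5 ± 4.02 for BF-C and 87.4 ± 14.4 for BF-D. Psap led the hydrolases and activators in every group, at 2285 ± 410, 3455 ± 695, 833 ± 13.5 and 927 ± 80.2 in the same order. Atp6v0a1 was at 148 ± 27.4 in BMSC-C and 18.6 ± 0.70 in BF-C. The macrophage markers moved with this gap, since their share was 0.864 to 1.02% of reads in BMSC-C and 0.00345 to 0.0038% in BF-C, where C1qa, C1qb, C1qc, Cd163 and Marco were not analysed and Mrc1 had no read. Their part in it was not tested.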

How the data were processed

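The authors deposited, for each comparison, a table of normalized counts per gene (a signal unit, reads divided by 1 size factor per library) with their own log2 fold changes and p-values, per the file headers. Aligner and build are named as Bowtie 0.12.2 and mm8, a mouse build, per the submitters' processing notes; the gene identifiers are rat. Gene counting and size factors are not given in the sources used here. Every value came out as a whole number of reads (100% within a tolerance of 0.01), 1 read being worth 0.813 to 1.61 normalized counts; 0 columns were left without a sample. Gene lengths and the KEGG term counts are the authors' deposited values.

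Because the values are normalized, limma 3.58.1 (R 4.3.3) was run on log2(normalized count + 1) within each table, for genes with a mean of at least 1, with Benjamini-Hochberg adjustment over all genes tested and a threshold of 0.05. Fold changes are on that scale, which understates changes of low genes. edgeR 4.0.16 and DESeq2 1.42.0 were run on the recovered reads as alternatives. The others were pseudocounts of 0.5 and 5, no filter or a mean of 10, TMM, total-read and quantile scaling, a replicate block, quality weights, removal of each library's trend with gene length, and each library left out. It was tested on simulated data in which 200 genes were changed. Ratios of isoforms were tested with exact permutation tests (SciPy 1.17.1). Intervals for fold changes are 95%.

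The genes and lists were chosen with earlier results of these data known. Per-library values are given for the called genes with the smallest adjusted p in each class and for paired isoforms; transcription factors and single list members were added as context after their values were seen.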

Additional observations from a re-analysis of the deposited data

How the results depend on the processing

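The 23 lysosomal genes called higher in BMSC-CT became 15 with total-read scaling, 35 with DESeq2 and 42 with quality weights, which also called 1 lower. Of all genes 7.70% were called higher in the main fit, and 4.68%, 16.5% and 24.7% in these settings. Quality weights called 30.1% of all genes lower. With each library's trend with gene length removed it was 29, 22 of them shared with the 23, and Sgsh was lost. In that setting a larger share of all genes was also called higher than in the main fit. The 29 and the 23 therefore have different backgrounds. Leaving out 1 library gave 3 to 41, and the cause was not tested. The count was 3 without BMSC-C replicate 1 (1.69% of all genes called higher) and 3 without BMSC-C replicate 2 (1.48%). It was 9 without BMSC-C replicate 3 (2.75%) and 5 without BMSC-CT replicate 2 (2.39%). With BMSC-CT replicate 3 left out it was 41 (19.5%). With the replicate block the count was 24 in BMSC-CT, where 7.82% of all genes were called higher. It was 0 in BF-D, where 0 of all genes were called. Each gene's group mean was subtracted, and the remaining deviations were correlated between control and treated libraries. Deviations of same-numbered libraries correlated at 0.199, -0.021 and 0.183 in the BMSC table, where differently numbered ones lay between -0.225 and 0.089. In the BF table the same-numbered values were 0.014, 0.02 and -0.003, and the others lay between -0.035 and 0.028. The labels do not say whether equal numbers mark pairs, and pairing was not tested. Total-read scaling moved the median of all genes from -0.147 to -0.533 on the log2 scale. It turned the log2 fold changes of several genes that were not called below 0. Among them were Lamp2, Atp6v0d2, Atp6v0a2, Npc1, Scarb2, Idua, Arsb and Atp6v1c1. In BF-D against BF-C, 0 of the lysosomal genes were called higher or lower under every alternative run. Of all genes, DESeq2 called 0.422% and the fit without BF-D replicate 2 called 1.54%. The 3 libraries per group limit what can be called, and Atp6v0a4, Atp6v1b1, Atp6v1e2 and Atp6v1g2 rest on few reads.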
